A study of Mus musculus with 4 samples.

Results

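The matrix metalloproteinases Mmp2, Mmp3, Mmp9, Mmp11, Mmp14 and Mmp15 and the tissue inhibitors of metalloproteinases Timp1, Timp2, Timp3 and Timp4 were chosen by gene symbol, as every probe set whose platform annotation gives 1 of these 10 symbols and no other. A probe set is a group of short oligonucleotides on the array that reports 1 transcript or a few. Of the 10 genes, 9 had such a probe set, 5 proteinases and 4 inhibitors, out of 18193 genes with a probe set of their own. They were covered by 22 probe sets. No probe set was assigned to Mmp15, which was not analysed here. The choice used symbols and not signals, but it was made with earlier results of these arrays known.

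Total RNA of mouse eye tissue, labelled retina, was hybridised to 4 one-colour Affymetrix arrays, 2 for controls and 2 for transgenic mice that carry the secreted glycoprotein myocilin in the aqueous humor, which fills the front of the eye. The labels call control array 2 a technical replicate of control array 1, so the control group counts as 1 sample. The transgenic arrays were taken as 2 samples, although the labels do not say whether they came from separate animals, and p-values measure the spread between these arrays, which may be technical. Strain, age, sex and the promoter of the transgene are not given in the sources used here, and the gene of the transgene was not analysed here.

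Matrix metalloproteinases are zinc-dependent enzymes that are made as inactive precursors and cleave collagens, proteoglycans and laminins once a propeptide is removed. TIMPs bind the active site of these enzymes and block it, and the balance of enzyme and inhibitor sets how fast matrix turns over. In the eye this turnover is known for its part in the drainage of aqueous humor through the trabecular meshwork, in corneal wound repair and in Bruch's membrane beneath the retinal pigment epithelium. The labels pose the question of what a high level of myocilin around the retina does to expression there. The comparison of transgenic with control arrays bears on it only in part, since rod markers, described below, did not bear out the tissue label.

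Promoters of 3 members are shown, picked by the signals described below. They are those of Mmp3, whose probe set was higher on both transgenic arrays, and Timp2, with 2 of 6 probe sets higher on both. The third is that of Mmp14, whose brighter probe sets overlapped between the groups. Each is the 250 bases before the start of the gene in RefSeq annotation of GRCm38.p6, 5′ to 3′ on the strand of the gene, for Mmp3 chr9:7445572-7445821 (plus strand), for Timp2 chr11:118355412-118355661 (minus strand) and for Mmp14 chr14:54431348-54431597 (plus strand). Capitals mark exact matches on either strand to the AP-1 motif TGAGTCA, the TATA motif TATAAA and the GC box GGGCGG.
Mmp3: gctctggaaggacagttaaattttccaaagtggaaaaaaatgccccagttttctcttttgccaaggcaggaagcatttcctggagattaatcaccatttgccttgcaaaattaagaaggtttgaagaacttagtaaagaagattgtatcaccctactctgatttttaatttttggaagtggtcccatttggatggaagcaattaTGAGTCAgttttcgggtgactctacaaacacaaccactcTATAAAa
Timp2: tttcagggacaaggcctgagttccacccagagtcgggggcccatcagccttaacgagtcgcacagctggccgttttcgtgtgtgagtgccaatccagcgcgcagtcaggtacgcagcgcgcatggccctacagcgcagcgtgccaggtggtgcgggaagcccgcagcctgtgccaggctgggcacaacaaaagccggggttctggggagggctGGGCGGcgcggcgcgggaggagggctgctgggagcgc
Mmp14: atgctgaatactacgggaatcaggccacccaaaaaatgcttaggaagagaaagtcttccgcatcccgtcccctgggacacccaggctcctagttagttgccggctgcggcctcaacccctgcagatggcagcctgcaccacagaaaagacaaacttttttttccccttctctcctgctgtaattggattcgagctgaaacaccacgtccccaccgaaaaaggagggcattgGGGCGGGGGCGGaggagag
Of the 10 genes, 8 were in the promoter table. The Mmp3 window held the AP-1 motif, beginning 46 bases before the start, and the TATA motif, beginning 7 bases before it, and no GC box. The AP-1 motif is present in 4.46% of the 32851 promoter windows of this length in the table, the TATA motif in 12.4% and the GC box in 32.7%. Neither the AP-1 nor the TATA motif was found in the windows of Mmp11, Mmp14, Mmp15, Timp1, Timp2, Timp3 and Timp4. All of these but Timp4 held a GC box, with 1 in Timp2 and 2 adjoining matches in Mmp14. The share of G and C was 37.6% for Mmp3, 55.2% for Mmp14 and 68.0% for Timp2, against a median of 52.4% over the table. These matches describe letters in the windows and do not show that a factor binds there.

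The deposited values were linear signals, with a trimmed mean of 150 on every array. Changes are differences of log2(signal + 16) between the transgenic arrays and the mean of the control arrays, with standard errors (SE) and adjusted p from limma, a linear model with moderated variances fitted to all 27022 probe sets that passed a filter on dim signals. The addition of 16 understates the change of dim probe sets. The filter corresponds to a signal of about 30.0, and 17 of the 22 member probe sets passed it, 7 of proteinases and 10 of inhibitors. The technical control arrays differed by a median of 0.15 on the log2 scale over the probe sets tested, and the transgenic arrays by 0.17. On all arrays the markers of corneal epithelium, corneal stroma and skeletal muscle were bright, while none of 5 rod genes with a probe set (0 of 5) had a control mean over 150, so the tissue label was not borne out by rod markers.

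None of the 17 tested probe sets passed the limma threshold of an adjusted p of 0.05 (0 of 17), against 0.0777% of all probe sets tested (0.0555% higher and 0.0222% lower), and 3 had an unadjusted p under 0.05, against 7.06%. The 3 were the probe set of Mmp3 and a pair of Timp2. Both transgenic arrays lay above both control arrays for 7 of the 17, against 21.1% of all probe sets tested, and below both for 1, against 23.6%. In either direction that is 8 of the 17 against 44.7%, a share near the background. The 7 belonged to Mmp2, Mmp3, Mmp9, Timp2 and Timp3, and several of them report the same gene, so they are not 7 separate observations. The Mmp9 probe set had a control mean under the filter level and passed through 1 transgenic array. It therefore had to be higher on that array, and the filter favoured its place among the 7 and the 8. Over all probe sets tested, 15 passed as higher and 6 as lower, a split that became 20 and 19 after quantile normalization and 142 and 35 after median centring.

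**Figure D1:**
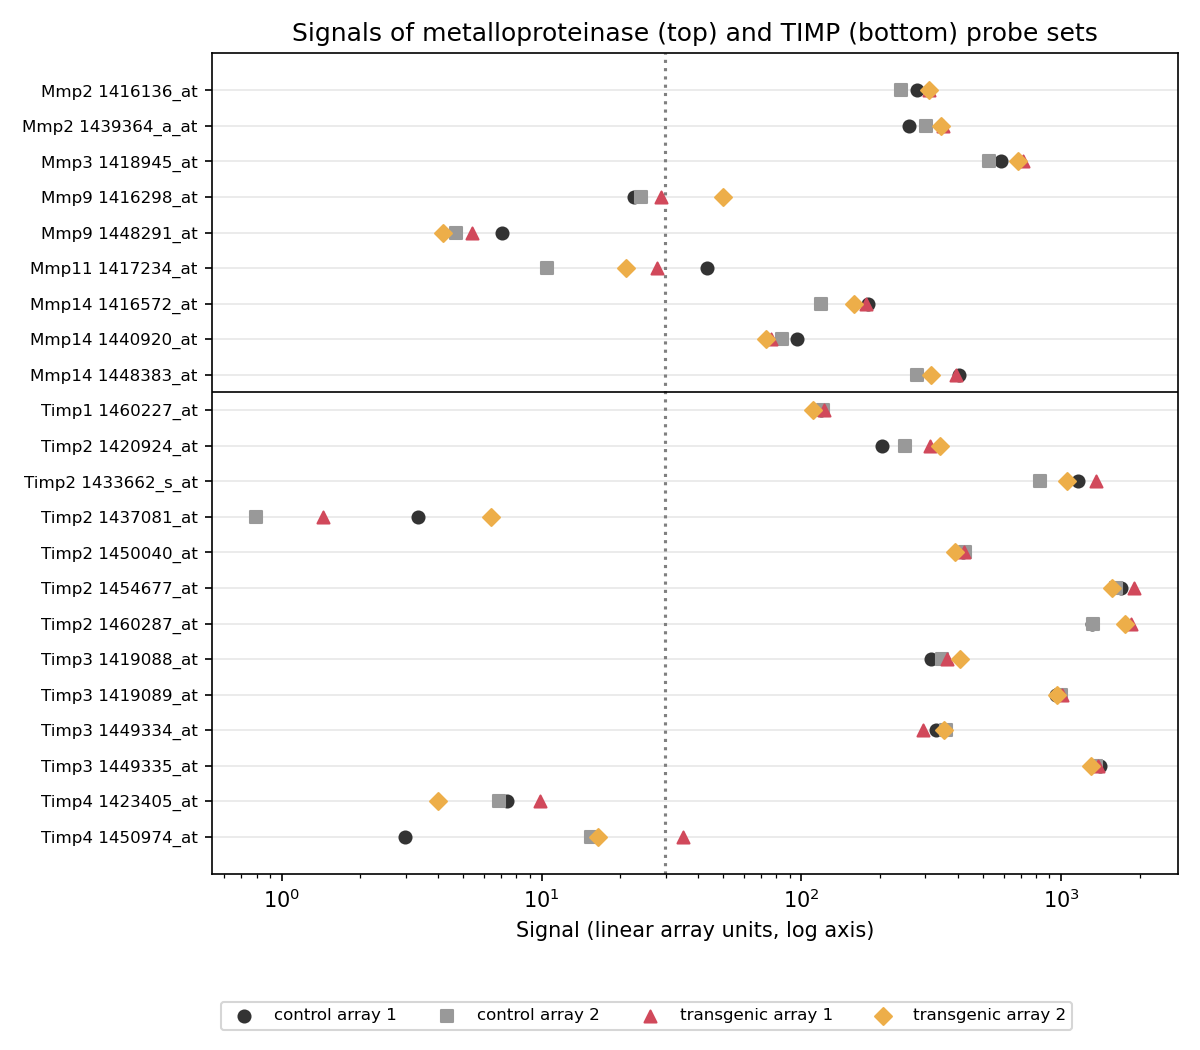
Signal of each member probe set on each array, on a log axis, with control array 1 as circles, control array 2 as squares, transgenic array 1 as triangles and transgenic array 2 as diamonds, and the filter level of about 30.0 as a dotted line. Proteinases stand above the horizontal line and inhibitors below it; both transgenic arrays lie to the right of both control arrays for Mmp2, Mmp3 and the brighter Mmp9 probe set, and for Timp2 1420924_at and 1460287_at, Timp3 1419088_at and the untested Timp4 1450974_at.

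Among the proteinases, Mmp2 and Mmp3 had higher signals on both transgenic arrays, by 1.18-fold to 1.25-fold, and no probe set passed the test. Mmp2 encodes gelatinase A, which cleaves gelatin and type IV collagen of basement membranes. Its probe set 1416136_at had control signals of 279 and 241 and transgenic signals of 308 and 310.3. Its other probe set, 1439364_a_at, had control signals of 260 and 301 and transgenic signals of 349.7 and 345. On both probe sets the transgenic arrays were close to each other and above both controls. The changes were 0.24 ± 0.15 (SE; limma adjusted p = 0.822) and 0.30 ± 0.15 (adjusted p = 0.747), which is 1.18-fold and 1.23-fold on this scale. The control arrays differed by 0.20 on each probe set, array 1 being the brighter on the first and array 2 on the second. Without control array 2 the change of 1416136_at was 0.14, and without control array 1 that of 1439364_a_at was 0.20.

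Mmp3 encodes stromelysin 1, which degrades proteoglycans and laminin and activates other proteinase precursors. Its only probe set, 1418945_at, had control signals of 585 and 528 and transgenic signals of 713 and 683, with a transgenic mean of 698 ± 21.5 (SD, n = 2). The groups did not overlap, and the gap between the lower transgenic and the higher control array was wider than the gap within either group. The change was 0.32 ± 0.12 (SE), or 1.25-fold, with an unadjusted p of 0.0233 and a limma adjusted p of 0.625.

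Markers of several tissues moved on the same arrays as Mmp2 and Mmp3, some up and some down. In bulk tissue, more cells of a type and more RNA per cell cannot be told apart. All 4 markers of corneal stroma with a probe set (Kera, Lum, Dcn and Ptgds) were higher on both transgenic arrays, and their summed signal was 18784 to 19601 in control and 24901 to 25747 in transgenic arrays. All 6 skeletal muscle markers were higher, with sums of 9491 to 9734 and 16765.6 to 16905. All 8 markers of pigment epithelium and melanocytes were higher, with sums of 28501 to 28831 and 32921 to 35747. Of 4 fibroblast and sclera markers, 2 were higher and 1 was lower on both transgenic arrays, with sums of 10776 to 11116 and 12201 to 12272. Lens markers, 6 with a probe set, had sums of 92.8 to 128 and 441 on both transgenic arrays. Of all genes tested, 22.8% were higher and 24.0% lower on both transgenic arrays. Sums of corneal epithelium, Mueller glia, macrophage and neutrophil markers were also higher, although the median change of the macrophage markers was −0.17. Sums of rod, cone, retinal neuron, endothelium and mural markers were lower, with 1 or 2 markers of each list lower on both transgenic arrays. Of the retinal neuron markers, 1 was also higher on both. Cone sums were 304 to 355 in control and 237 to 275 in transgenic arrays, and mural sums 1398 to 1536 and 1246 to 1247. The brightest mural marker, Rgs5, had 1033 and 990 in control and 751 and 774 in transgenic arrays, while the median change of the mural markers was 0.10. Markers past the limma threshold numbered 3 of lens, 3 of skeletal muscle, 2 of pigment epithelium and melanocytes and 1 of corneal stroma. No marker of another list passed, and 0.0777% of all probe sets tested did. The lens markers had control means of at most 27.2, under the filter level, so those tested passed the filter through the transgenic arrays. No marker of any of these lists was at 0. The part of these tissues in the signals of Mmp2 and Mmp3 was not tested.

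Mmp9, or gelatinase B, an enzyme of leukocytes and of healing epithelium, was near the filter level. Its brighter probe set, 1416298_at, had control signals of 22.7 and 24.2 and transgenic signals of 28.9 and 50.0. The groups did not overlap, but transgenic array 1 was closer to the controls than to transgenic array 2. The change was 0.47 ± 0.39 (SE; limma adjusted p = 0.889), and it ranged from 0.19 with transgenic array 1 alone to 0.74 with transgenic array 2 alone. The control mean of this probe set lay under the filter level, which it passed through transgenic array 2. The second probe set, 1448291_at, ran from 4.18 to 7.02 over the 4 arrays, overlapped between the groups and was not tested. Of 4 neutrophil markers with a probe set, S100a8 and Elane were higher on both transgenic arrays, against 22.8% of all genes tested. The summed signal of the 4 was 149 to 184 in control and 218 to 247 in transgenic arrays. Elane and Camp, granule genes of neutrophils, had control signals between 3.02 and 7.28. Of 5 macrophage markers, 1 was higher and 2 were lower on both transgenic arrays. The part of these cells in the Mmp9 signal was not tested.

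Mmp14, a proteinase anchored in the cell membrane that activates the Mmp2 precursor with Timp2 as a bridge, had 3 probe sets that did not move together. The brightest, 1448383_at, had control signals of 405 and 279 and transgenic signals of 395 and 316. Probe set 1416572_at had control signals of 180 and 119 and transgenic signals of 178 and 159.9. On both, control array 2 was the lowest of the 4 and control array 1 the highest, although the labels describe these arrays as technical replicates. The ratio of control array 1 to array 2 was 1.45 and 1.50, and a gap of at least 0.5 on the log2 scale between the control arrays occurred on 8.78% of all probe sets tested. The changes were 0.07 ± 0.16 (SE; limma adjusted p = 0.979) and 0.18 ± 0.19 (adjusted p = 0.924), and without control array 2 they turned to −0.19 and −0.084. The third probe set, 1440920_at, had control signals of 96.1 and 83.9 and transgenic signals of 76.1 and 73.0, the only tested member probe set that was lower on both transgenic arrays, with a change of −0.23 ± 0.25 (adjusted p = 0.933) that was −0.14 without control array 1.

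Mmp11, or stromelysin 3, a proteinase activated by furin before secretion, was dim and was not tested. Its probe set had control signals of 43.5 and 10.5 and transgenic signals of 27.9 and 21.1. Both transgenic values lay between the control values, and the change was 0.61 without control array 1 and −0.56 without control array 2. Its direction was therefore set by which control array was used.

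**Figure D2:**
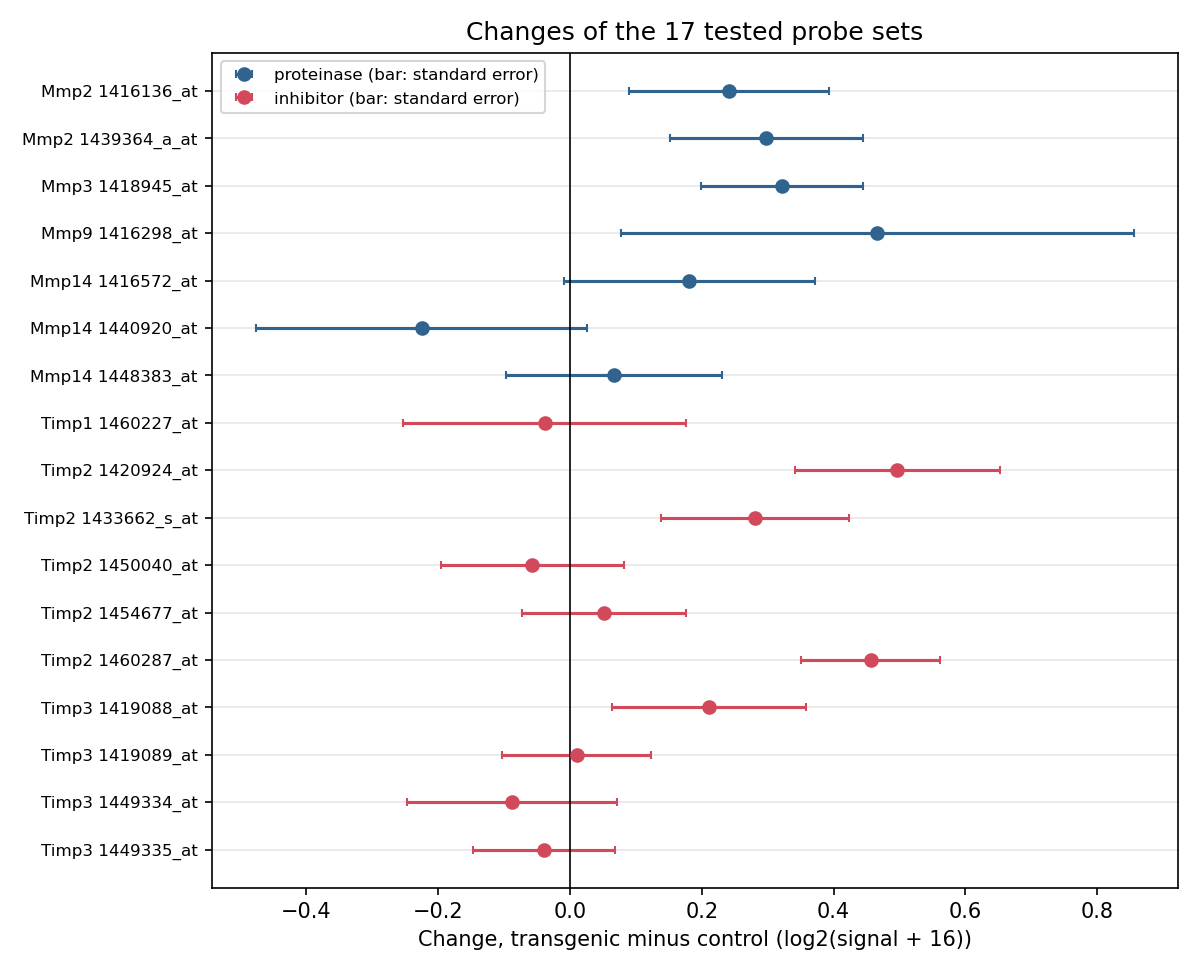
Change of each of the 17 tested probe sets, transgenic minus control on the log2(signal + 16) scale, as points with the limma standard error as bars, proteinases in blue and inhibitors in red. The values run from −0.23 for Mmp14 1440920_at to 0.50 for Timp2 1420924_at, and the probe sets of Timp2 spread over most of that range.

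Among the inhibitors, Timp2 had the 2 tested probe sets with the largest changes, but its probe sets disagreed and none passed the test. Timp2 inhibits most matrix metalloproteinases and also takes part in the activation of the Mmp2 precursor. Probe set 1460287_at had control signals of 1308 and 1321 and transgenic signals of 1859 and 1760, with a transgenic mean of 1810 ± 70.4 (SD, n = 2). The control arrays were nearly equal, and both transgenic arrays were far above them. The change was 0.46 ± 0.11 (SE), or 1.37-fold, with an unadjusted p of 0.00110 and a limma adjusted p of 0.282. It passed the threshold after median centring (adjusted p = 0.0423) and with all 4 arrays as separate samples (adjusted p = 0.0383), a setting that counts technical replicates as samples.

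Probe set 1420924_at of Timp2 had control signals of 204 and 250.4 and transgenic signals of 311 and 341. The groups did not overlap, and the change was 0.50 ± 0.16 (SE), or 1.41-fold, with an unadjusted p of 0.00810 and a limma adjusted p of 0.475. Probe set 1433662_s_at had control signals of 1161 and 829 and transgenic signals of 1356 and 1055. Here the groups overlapped, since transgenic array 2 lay under control array 1, and array 1 was the brighter in both groups. Its change was 0.28 ± 0.14 (SE; limma adjusted p = 0.765), and it was 0.52 without control array 1, 0.042 without control array 2, 0.10 without transgenic array 1 and 0.46 without transgenic array 2.

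The remaining tested Timp2 probe sets showed little difference between the groups. The brightest, 1454677_at, had control signals of 1705 and 1625 and transgenic signals of 1899 and 1568, with a change of 0.05 ± 0.12 (SE; limma adjusted p = 0.979) that ran from −0.085 to 0.19 without 1 array. Probe set 1450040_at had control signals of 420.3 and 428 and transgenic signals of 423 and 392, with a change of −0.06 ± 0.14 (adjusted p = 0.979). On both the groups overlapped, with transgenic array 1 above both controls on the first and transgenic array 2 below both controls on each. A sixth probe set, 1437081_at, ran from 0.797 to 6.38 over the 4 arrays and was not tested.

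The disagreement can be read within each array, where scaling between arrays has no part except through the added 16. The log2 difference between Timp2 1460287_at and 1450040_at was 1.60 and 1.59 in control and 2.10 and 2.12 in transgenic arrays. Its change of 0.51 was larger than the differences of 0.01 and 0.03 within the groups, as a description of a pair picked after its values were seen. Of the 10 pairs of tested Timp2 probe sets, 4 had differences that did not overlap between the groups, each of them pairing 1420924_at or 1460287_at with 1454677_at or 1450040_at. Of single probe sets, 44.7% did not overlap between the groups, but that share is of signals compared between arrays. Among the other members, 3 of 6 pairs of Timp3 and 2 of 3 pairs of Mmp14 did not overlap, so such disagreement was not particular to Timp2. No such share was computed for pairs within arrays over all genes, and the pairs of a gene share probe sets. Such a ratio shows unequal change of the probe sets and does not show which of them reports the amount of Timp2 RNA. Which part of the transcript each probe set covers was not analysed here.

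**Figure D3:**
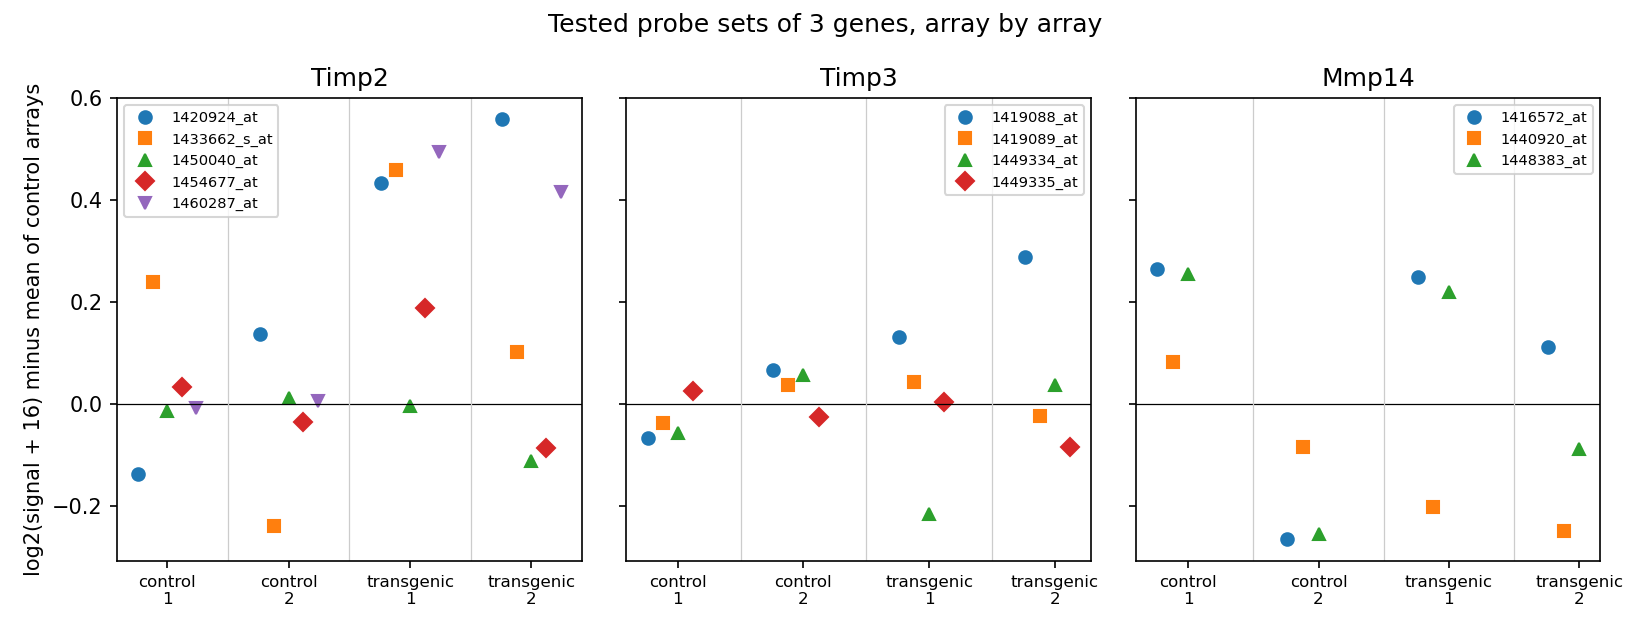
Tested probe sets of Timp2, Timp3 and Mmp14 on each array, as log2(signal + 16) minus the mean of the control arrays, so that 0 is the control mean; each symbol is 1 probe set. Timp2 1420924_at and 1460287_at lie above 0 by 0.50 and 0.46 on average on the transgenic arrays while 1450040_at averages −0.06, and control arrays 1 and 2 stand apart for the Mmp14 probe sets 1416572_at and 1448383_at.

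Timp3, the inhibitor that binds to the matrix, is abundant in Bruch's membrane and also restrains Adam17 and ADAMTS enzymes, had 4 tested probe sets, 3 of which overlapped between the groups. The brightest, 1449335_at, had control signals of 1410 and 1361 and transgenic signals of 1390.2 and 1305. Probe set 1419089_at had control signals of 950 and 1001 and transgenic signals of 1006 and 960. The groups overlapped on both, with changes of −0.04 ± 0.11 (SE; limma adjusted p = 0.983) and 0.01 ± 0.11 (adjusted p = 0.995).

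Timp3 1419088_at had control signals of 314 and 347 and transgenic signals of 363 and 407. The groups did not overlap, but the gap between them was narrower than the gap within either group, and the change was 0.21 ± 0.15 (SE; limma adjusted p = 0.851), or 0.13 without transgenic array 2. Timp3 1449334_at had control signals of 330.5 and 359 and transgenic signals of 295 and 354 and overlapped, with a change of −0.09 ± 0.16 (adjusted p = 0.966). The pigment epithelium is a known source of Timp3. Markers of pigment epithelium and melanocytes lay above both controls for 8 of 8 genes, against 22.8% of all genes tested, with the sums given above. The part of these cells in the Timp3 signals was not tested.

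Timp1, an inhibitor induced in inflammation and wound repair, had 1 probe set and showed no separation of the groups. Its control signals were 119 and 121 and its transgenic signals 122 and 111. The transgenic values lay on either side of the control values, and the change was −0.04 ± 0.21 (SE; limma adjusted p = 0.994). Timp4, an inhibitor known mainly from heart, brain and fat tissue, was dim on both of its probe sets, which were not tested. Probe set 1423405_at ran from 3.98 to 9.85. Probe set 1450974_at had control signals of 2.99 and 15.5 and transgenic signals of 34.9 and 16.5, so that transgenic array 2 exceeded control array 2 by little.

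With each gene read from its brightest tested probe set, the proteinases had a median change of 0.31 over 4 genes, with all 4 above 0 (also after quantile normalization and median centring), and the inhibitors a median of −0.04 over 3 genes, with 1 above 0. The median over all 12722 genes tested was −0.01, with 48.1% above 0. The transgenic arrays lay above both control arrays for 3 of the 4 proteinases and for none of the 3 inhibitors (0 of 3), against 22.8% of all genes tested. The inhibitor count rests on reading Timp2 from 1454677_at. Timp2 1460287_at, close to it in brightness, was higher on both transgenic arrays, with a change of 0.46. The proteinase median was 0.26 from transgenic array 1 and 0.29 from transgenic array 2, and the inhibitor median was 0.02 and −0.09. The inhibitor median was 0.02 when the probe sets of each gene were averaged, and its sign turned with several settings. Mmp9 passed the filter only through transgenic array 2 and so had to be higher there. Without it, as with the filter at the 60th percentile, the proteinase median was 0.30 over 3 genes, of which Mmp2 and Mmp3 did not overlap between the groups. These medians and counts are descriptions of the genes that passed the filter, support no contrast of proteinases with inhibitors and were not tested.

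Of the 4 inhibitor genes, 3 share a kind of position that the choice did not use. In RefSeq annotation Timp1 lies inside Syn1, Timp3 inside Syn3 and Timp4 inside Syn2, genes of synapsins, which coat synaptic vesicles of neurons, while Timp2 lies inside none of them. These were looked at after the member values were known. Signals of Syn3 1435311_s_at were 42.9 and 43.1 in control and 42.0 and 54.6 in transgenic arrays, and those of Syn2 1460230_at were 47.7 and 33.3 against 35.9 and 48.6. Syn1 1451484_a_at had 45.6 and 64.8 against 7.09 and 46.7, with a change of −0.89 ± 0.52 (SE; limma adjusted p = 0.805). The groups overlapped for all 3 synapsin genes. Mmp3 lies between Mmp1b and Mmp1a, which had signals between 1.25 and 18.1 on the 4 arrays and overlapped between the groups.

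The other matrix metalloproteinases were mostly dim. Of 17 listed, 13 had a probe set and 4 were tested, of which 0 passed in limma and 0 had an unadjusted p under 0.05, with a median change of 0.05. That median was −0.06 from transgenic array 1 and 0.19 from transgenic array 2. Mmp16, another membrane-anchored proteinase, was the only tested gene of this list whose groups did not overlap. Its brightest probe set, 1440161_at, had control signals of 67.4 and 60.6 and transgenic signals of 86.2 and 82.4, with a change of 0.33 ± 0.25 (SE; limma adjusted p = 0.877). Its probe set 1437568_at was also higher on both transgenic arrays, at 67.5 and 55.5 against 30.7 and 34.5, and 1422626_at overlapped.

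Related secreted and membrane proteases had more values below 0 than above it, also after quantile normalization and median centring. Of 8 tested ADAMTS genes, which cut proteoglycans and procollagens, 6 were below 0 with a median of −0.11, and 0 passed in limma, with 0 at an unadjusted p under 0.05. The ADAMTS median was −0.18 from transgenic array 1 and 0.01 from transgenic array 2, so its sign rested on array 1. Adamts16 stood at −0.22 ± 0.20 and Adamts10 at −0.19 ± 0.23 (SE; limma adjusted p = 0.903 and 0.943), while a dimmer Adamts16 probe set, 1441841_at, had higher signals on both transgenic arrays, 64.6 and 65.1 against 44.5 and 15.8. Of 9 tested ADAM genes, which shed proteins from the cell surface, 7 were below 0 with a median of −0.11, and again 0 passed, with 0 at an unadjusted p under 0.05. The ADAM median was −0.08 from transgenic array 1 and −0.21 from array 2. Adam28 stood at −0.23 ± 0.22 and Adam33 at −0.05 ± 0.27 (SE; limma adjusted p = 0.913 and 0.994). Adam17, the enzyme that releases tumor necrosis factor, stood at −0.15 ± 0.15 (adjusted p = 0.921) on its brightest probe set. The other tested Adam17 probe sets, 1421857_at and 1421858_at, overlapped between the groups, with changes of 0.01 and −0.05.

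The plasminogen system, which activates several metalloproteinase precursors, had 5 tested genes with values on both sides of 0. None passed in limma (0 of 5) and 2 had an unadjusted p under 0.05, against 7.06% of all probe sets tested. Plat, the tissue plasminogen activator, had control signals of 525 and 546 and transgenic signals of 705 and 633, with a change of 0.31 ± 0.13 (SE; limma adjusted p = 0.655). A dimmer tested probe set of Plat, 1458553_at, was lower on both transgenic arrays, at 26.5 and 32.0 against 46.6 and 39.6, with a change of −0.38 ± 0.36 (adjusted p = 0.909). Serpinb2, an inhibitor of plasminogen activators, had control signals of 193 and 206 and transgenic signals of 147 and 134, with a change of −0.46 ± 0.19 (adjusted p = 0.655). On the Serpinb2 probe set the groups did not overlap. Plgrkt, a plasminogen receptor of the cell surface, stood at 0.25 ± 0.13 (adjusted p = 0.776).

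Of 17 tested genes for activators, membrane inhibitors and clearance receptors, 0 passed in limma and the median was 0.07. An unadjusted p under 0.05 was found for 4 of them, against 7.06% of all probe sets tested. A2m, a broad trap for proteinases, had control signals of 1246 and 1112 and transgenic signals of 1722 and 1453, with a change of 0.42 ± 0.12 (SE; limma adjusted p = 0.421). Cd44, which docks Mmp9 and Mmp14 at the cell surface, had control signals of 2062 and 2002 and transgenic signals of 1524 and 1602, with a change of −0.38 ± 0.10 (adjusted p = 0.397). Its tested probe set 1434376_at was also lower on both transgenic arrays, while the tested 1452483_a_at overlapped, with a change of −0.18. Pcsk5, a convertase of precursors, stood at 0.36 ± 0.20 (adjusted p = 0.792) on its brightest probe set, while tested 1451406_a_at overlapped. The untested Pcsk5 1424605_at was lower on both transgenic arrays, at 15.7 and 21.8 against 30.6 and 36.6. The untested 1452475_at was higher on both, at 29.4 and 36.4 against 25.3 and 21.2, and the untested 1438248_at overlapped.

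Among 29 tested genes for matrix substrates, 0 passed in limma and 4 had an unadjusted p under 0.05, against 7.06% of all probe sets tested. The median was 0.03 with 15 above 0, which turned to −0.018 with 14 above 0 after quantile normalization. Both transgenic arrays lay above both controls for 8 of the 29 and below for 2, against 22.8% and 24.0% of all genes tested. Col5a2, a chain of type V collagen, stood at 0.37 ± 0.11, Fbln5, a protein of elastic fibers, at 0.36 ± 0.13 and Dcn, the proteoglycan decorin, at 0.34 ± 0.09 (SE; limma adjusted p = 0.426, 0.587 and 0.387). Dcn is also a marker of the corneal stroma list, whose summed signals are given above.

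**Figure D4:**
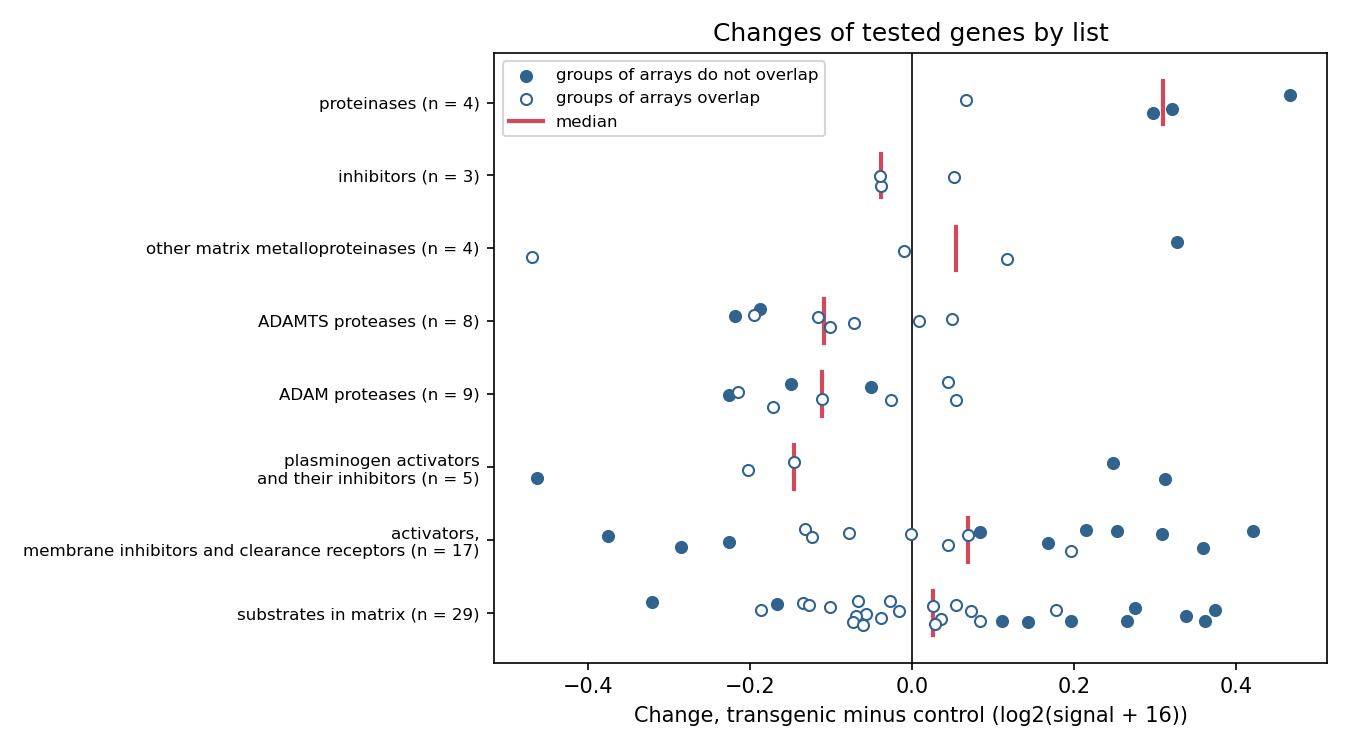
Change of each tested gene, transgenic minus control on the log2(signal + 16) scale, by list, with filled points where the groups of arrays do not overlap, open points where they do and a red bar at the median. The proteinases have a median of 0.31, the inhibitors of −0.04, and the ADAMTS and ADAM proteases of −0.11 each.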

How the data were processed

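Expression was measured on 4 one-colour oligonucleotide arrays of mouse eye tissue, and the authors deposited a linear signal intensity for each of 45101 probe sets. The sources used here give neither the software behind the intensities nor a genome build. Values were used as deposited, because their trimmed means differed by under 5%. Array controls (64 probe sets) were left out. Gene symbols came from the platform annotation, where 34958 had 1 symbol, 932 had several and 9211 had none. Symbols of all 22 member probe sets matched RefSeq by gene identifier.

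Signals were transformed as log2(signal + 16), and probe sets above the 40th percentile of the mean were tested with limma 3.58.1 in R 4.3.3 (lmFit, eBayes with an intensity trend, two-sided, Benjamini-Hochberg over 27022 probe sets, threshold 0.05). The control arrays were averaged, which left 1 residual and 10.3 prior degrees of freedom, with the same spread assumed in both groups. The script was tested on simulated data.

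A gene was read from its brightest tested probe set. The genes named were all members and, from each of 6 related lists, those past the threshold and the 3 largest changes among tested genes whose groups of arrays did not overlap. Members and lists were chosen with earlier results of these data known. Alternatives covered scaling, pseudocount, filter, moderation, the treatment of the control arrays, the probe set of a gene and leaving out each array. The number of arrays limits the precision.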

Additional observations from a re-analysis of the deposited data

How the results depend on the processing

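Probe sets past the threshold numbered 21, against 39 after quantile normalization, 177 after median centring, 135 with 4 separate arrays, and 14 to 33 without 1 control array. In limma they numbered 0 without the filter and 0 without the intensity trend, where 2181 and 1059 had an unadjusted p under 0.05. The median change of the proteinases, 0.31, was 0.34 after median centring, 0.25 at a pseudocount of 64 and 0.26 to 0.36 without 1 array. That of the inhibitors lay between −0.09 and 0.02 over all settings. Signs turned for Timp2 1454677_at (−0.017) and Timp3 1419089_at (−0.012) after quantile normalization, and without 1 array the change ran from −0.084 to 0.45 for Mmp14 1416572_at, from −0.19 to 0.32 for Mmp14 1448383_at and from −0.027 to 0.047 for Timp3 1419089_at. The cause was not tested.

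With the replicate number as a replicate block and 4 separate arrays, 1740 probe sets passed, among them Mmp3 (adjusted p = 0.0181) and the Timp2 probe sets 1420924_at (0.00780), 1433662_s_at (0.0142) and 1460287_at (3.07e-05). The labels give no reason for the numbers to pair arrays, the differences between arrays 1 and 2 correlated at 0.0955 between the groups over probe sets, which are not independent, and this setting counts technical replicates as samples.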
